A study of Sus scrofa with 18 samples.

Results

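ADAD1 and GTSF1, a pair of genes best known from germ cells, were described in the livers of 18 growing pigs. They are 2 of the 12307 different gene symbols that the platform annotation gives to single probe sets of the Affymetrix porcine gene array, and each was measured by 1 probe set, 15323870 for ADAD1 and 15292231 for GTSF1. The pair was chosen by its measured values, namely the lower means in livers of pigs fed the larger amount of insect meal than in livers of control pigs. That comparison is therefore given below as a description, without a test for either gene.

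The pigs were male crossbreds of Piétrain sires and German Landrace × German Edelschwein dams, 5 weeks old at the start, and were killed on day 29 after 4 weeks on their diets. Pigs of group CON received soybean meal and 0% insect meal. In group IM5, 5% insect meal from Tenebrio molitor larvae (yellow mealworm) took the place of 50% of the soybean meal, and in group IM10, 10% insect meal took the place of 100% of it. The insect meal diets also differed from the CON diet in their cellulose, oil and amino acid supplements, so insect meal and these components cannot be told apart. Each array held the liver RNA of 1 pig, and 6 of the 10 pigs of each group were used. Pigs were kept together in pens, and because no label tells which pigs shared one, every pig counts as a separate replicate below.

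ADAD1 (adenosine deaminase domain containing 1) is known in the mouse as an RNA-binding protein of the testis nucleus that spermatids need in order to mature. Its deaminase domain resembles that of the enzymes that turn adenosine to inosine in double-stranded RNA, but it is not known to edit RNA itself. GTSF1 (gametocyte specific factor 1) is a small zinc finger protein that works with PIWI proteins, which carry short piRNAs and use them to cut or silence transposon transcripts. Both genes are known for the germ line, and neither is a usual marker of a liver cell.

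The transcripts that stand behind the names can be placed by the qPCR primers that the study designed for these genes. They are shown because, for both genes, the record the primers were designed on belongs to the same gene as the probe set. The sequences run 5′ to 3′, are taken from the supplement of the study and hold no marked part.
ADAD1 forward: tgtgtcaatggcaagtcggc
ADAD1 reverse: ggagccatagccatgttgctg
GTSF1 forward: gaccctggctgagagcacat
GTSF1 reverse: tgcttgcagggctgttgttg
The primers were 20 or 21 bases long with a GC content between 55.0% and 60.0%. No result of a qPCR is used here.

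All levels below are log2 values after robust multi-array averaging (RMA), so 1 unit is a doubling of the signal. A fold change (FC) is 2 raised to the log2 difference. The array medians lay between 5.05 and 5.15 and pairs of arrays correlated at 0.986 to 0.992 over all probe sets, and no array stood apart. Detection calls were not used here, so a low value cannot be told from background, and precision is limited by the number of arrays.

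ADAD1 was lowest in several livers of the pigs fed insect meal, and its level varied far more among those pigs than among the control pigs. In group CON, replicates 1 to 6 had log2 values of 6.67, 7.62, 7.15, 7.34, 6.80 and 6.74 for ADAD1. For IM5 pigs the ADAD1 values were 4.30, 5.40, 6.87, 7.67, 6.56 and 7.08, and for IM10 pigs they were 3.85, 4.49, 6.08, 6.53, 7.39 and 5.16. All CON livers were thus high and close together, whereas both insect meal groups held livers at the CON level beside livers far below it. The ADAD1 mean was 7.05 ± 0.38 in group CON, 6.31 ± 1.24 in group IM5 and 5.58 ± 1.33 in group IM10 (SD, n = 6 each). IM5 replicate 4 had the highest ADAD1 value of all 18 livers.

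GTSF1 was lower on average in both insect meal groups, with a wide overlap. In group CON, replicates 1 to 6 had log2 values of 5.09, 4.61, 5.12, 5.15, 4.12 and 5.35 for GTSF1. For IM5 pigs the GTSF1 values were 4.22, 4.42, 3.53, 4.66, 4.13 and 5.29, and for IM10 pigs they were 3.97, 2.67, 2.74, 5.10, 4.42 and 4.21. A pair of IM10 livers, replicates 2 and 3, stood below all others, while IM10 replicates 4, 5 and 6 lay within the CON range. The GTSF1 mean was 4.91 ± 0.46 in group CON, 4.38 ± 0.59 in group IM5 and 3.85 ± 0.96 in group IM10 (SD, n = 6 each).

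**Figure D1:**
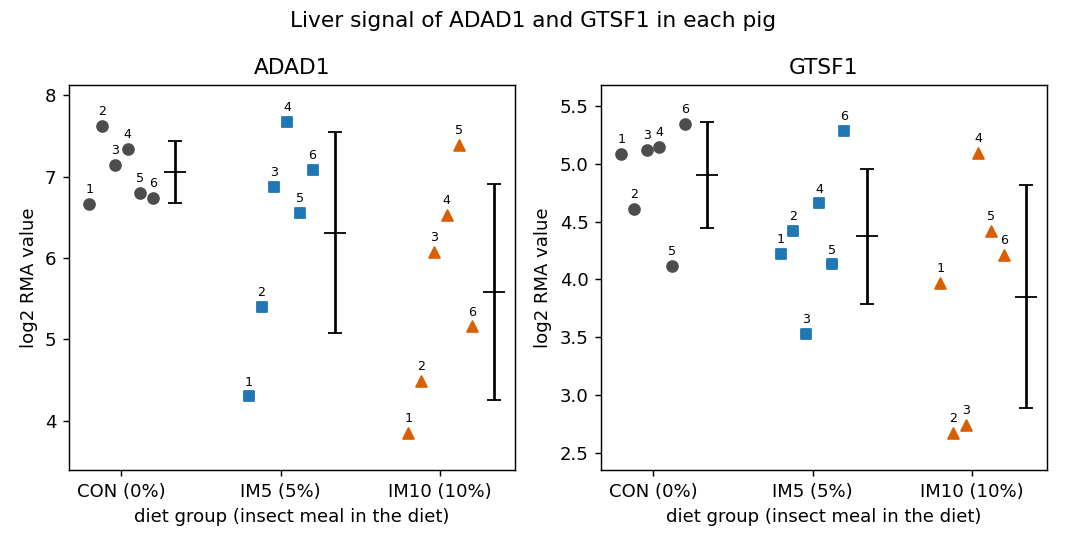
Log2 RMA value of ADAD1 (left) and GTSF1 (right) in the liver of each pig, by diet group with the percentage of insect meal in the diet. Points are single pigs labelled with their replicate number, and the bars beside them are the mean ± SD of 6 pigs. ADAD1 spans 0.95 log2 units in group CON, 3.37 in group IM5 and 3.54 in group IM10.

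The difference that led to the choice of the genes was IM10 against CON. The ADAD1 mean was 5.58 in group IM10 against 7.05 in group CON, a log2 difference of -1.47 (SE 0.46, 95% CI -2.46 to -0.48), or 2.77-fold lower. In 5 of 6 IM10 livers ADAD1 was below every CON liver, and IM10 replicate 5 was the exception. The GTSF1 mean was 3.85 in group IM10 against 4.91 in group CON, a log2 difference of -1.05 (SE 0.36, 95% CI -1.82 to -0.29), or 2.08-fold lower. In 3 of 6 IM10 livers GTSF1 was below every CON liver. Neither interval allows for the choice of the genes by this difference, so neither serves as a test. Over the whole array, 0.8% of the 25388 probe sets were lower in IM10 than in CON at an FC over 1.2 and an unadjusted limma p under 0.05 (called the criteria below; the study's methods set these thresholds for another test), and 0.122% had all 6 IM10 arrays below all CON arrays. With limma and Benjamini-Hochberg adjustment, 0 probe sets passed an adjusted p of 0.05, whereas 1541 (6.07%) had an unadjusted p under 0.05.

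The same genes were then compared for the lower amount of insect meal. This comparison shares the 6 CON arrays with the one that chose the genes. ADAD1 averaged 6.31 in group IM5 and 7.05 in group CON, a log2 difference of -0.74 (SE 0.43, 95% CI -1.66 to 0.18). It was not significant (two-sided exact permutation test p = 0.225, limma adjusted p = 0.889 over all probe sets). In IM5, 3 of 6 livers were below and 1 was above all CON livers for ADAD1. The difference rested largely on IM5 replicate 1, without which it was -0.34, and the difference of the medians was -0.26. GTSF1 averaged 4.38 in group IM5 and 4.91 in group CON, a log2 difference of -0.53 (SE 0.25, 95% CI -1.07 to 0.003; two-sided exact permutation test p = 0.121, limma adjusted p = 0.863). Across the array, 0.804% of the probe sets were lower in IM5 at the criteria, and neither gene was among them.

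Group IM10 was also set against group IM5, a comparison that shares the 6 IM10 arrays with the choice of the genes. The ADAD1 mean was 5.58 in group IM10 and 6.31 in group IM5, a log2 difference of -0.73 (SE 0.61, 95% CI -2.03 to 0.57). Neither the two-sided exact permutation test (p = 0.335) nor limma (adjusted p = 0.911) separated the groups. Leaving out IM10 replicate 1 gave -0.38, and leaving out IM5 replicate 1 gave -1.13. The GTSF1 mean was 3.85 in group IM10 and 4.38 in group IM5, a log2 difference of -0.52 (SE 0.38, 95% CI -1.33 to 0.29; two-sided exact permutation test p = 0.284, limma adjusted p = 0.900). Without IM10 replicate 2 it was -0.29, and the difference of the medians was -0.23. The share of probe sets lower in IM10 at the criteria was 0.764%. For both genes the order of the 3 means was CON, IM5, IM10 from high to low, with CON above IM10 set by the choice of the genes. In that order the neighbouring groups did not differ beyond their spread.

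The spread among pigs on 1 diet set these genes apart from nearly all others on the array. The SD within diets was 1.07 log2 units for ADAD1 and 0.70 for GTSF1, against a median of 0.16 over all probe sets. Only 21 probe sets, 0.0827% of the array, had a larger SD than ADAD1, and 92 (0.362%) had a larger SD than GTSF1. For ADAD1 the share of probe sets with a larger SD was 2.72% in group CON, 0.0788% in group IM5 and 0.0354% in group IM10. For GTSF1 it was 1.38% in group CON, 0.839% in group IM5 and 0.134% in group IM10. Since IM10 and CON arrays chose the genes, these ranks are a description. A wide range was not particular to the pair. Among other genes with large differences between IM10 and CON, ACTG2 ran from 2.96 to 8.01 and ASAH2 from 3.41 to 8.3 over all livers. GPRIN3 varied less, from 5.58 to 6.71. Whether the pigs fell into separate classes for ADAD1 or GTSF1 was not tested, and the gaps between sorted values are a description. Over the 18 sorted ADAD1 values the widest gap was 0.68, between 5.40 and 6.08 with 5 livers below it, and the next was 0.67. For GTSF1 the widest gap was 0.79, between 2.74 and 3.53 with 2 livers below it, and the next was 0.44.

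Whether both genes were low in the same pigs was asked next. The 6 lowest livers for ADAD1 were IM10 replicates 1, 2, 3 and 6 and IM5 replicates 1 and 2. The 6 lowest for GTSF1 were IM10 replicates 1, 2 and 3, IM5 replicates 3 and 5 and CON replicate 5. The lists shared 3 livers, IM10 replicates 1, 2 and 3. The lowest ADAD1 value and the lowest GTSF1 value fell in different pigs, however. IM10 replicate 1 had 3.85 for ADAD1 and 3.97 for GTSF1, whereas IM10 replicate 3 had 6.08 for ADAD1 and 2.74 for GTSF1. IM5 replicate 1 had the second lowest ADAD1 value, 4.30, with a GTSF1 value of 4.22 close to its group's mean.

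To set aside the diet differences that chose the genes, each value was taken as its deviation from the mean of its diet. Both genes were below their diet mean in 3 livers and above it in 6, and they lay on opposite sides in 9 of 18. The correlation of the deviations was r = 0.30 (permutation p = 0.337, 18 livers) and Spearman's rho was 0.31 (permutation p = 0.247). Without the 2 livers farthest from the median of ADAD1, IM5 replicate 1 and IM10 replicate 1, r was 0.40 (permutation p = 0.264). By diet, r was -0.10 in group CON, 0.23 in group IM5 and 0.41 in group IM10, with exact permutation p of 0.829, 0.653 and 0.415 and a Benjamini-Hochberg adjusted p of 0.829 for each of the 3. Spearman's rho was -0.14 in group CON, 0.43 in group IM5 and 0.66 in group IM10 (exact permutation p = 0.803, 0.419 and 0.175). A shared fall of ADAD1 and GTSF1 within a diet was therefore not detectable with these livers, which does not show that the genes varied independently. Over all 18 livers with no account of diet, r was 0.50 (permutation p = 0.033), a value that contains the diet differences by which the genes were chosen.

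**Figure D2:**
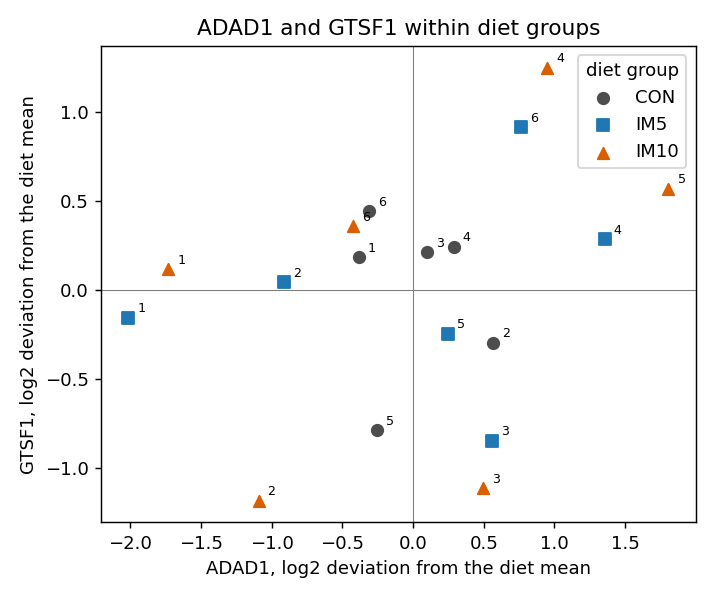
ADAD1 (x axis) against GTSF1 (y axis), each as the log2 deviation of a liver from the mean of its diet group. Points are 18 pigs labelled with their replicate number, and 9 of them lie on opposite sides of the means for the 2 genes (r = 0.30).

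Array-wide measures were set beside both genes. The within-diet r of ADAD1 was 0.06 with the array median, 0.03 with the interquartile range and 0.10 with the mean correlation of an array with the other 17. For GTSF1 these were -0.07, -0.01 and -0.50. The last had a permutation p of 0.0693 for r and 0.036 for rho, with rho at -0.54, and the adjusted p of r over the 6 relations was 0.416.

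The within-diet deviations of ADAD1 were next compared with those of every other probe set in 1 limma fit with a term for diet. Of 25387 probe sets, 1835 had an unadjusted p under 0.05, or 7.23%, of which 934 were positive (3.68%) and 901 negative (3.55%). Only 4 passed an adjusted p of 0.05, which is 0.0158%. Of these, 2 had a gene symbol, MGP and ACAT2. The other 2, probe sets 15183935 (r = -0.82, adjusted p = 0.0473) and 15192561 (r = 0.82, adjusted p = 0.0473), are unnamed here, and 15192561 ran the other way in group CON (r = -0.55).

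MGP, matrix Gla protein, a secreted vitamin K-dependent inhibitor of calcification, tended to be lower within a diet where ADAD1 was lower. IM5 replicate 2, with 5.40 for ADAD1 and 9.53 for MGP, was an exception. Its values in replicates 1 to 6 were 9.45, 9.68, 9.44, 9.48, 9.62 and 9.34 in CON pigs, 9.0, 9.53, 9.48, 9.82, 9.28 and 9.65 in IM5 pigs, and 9.0, 9.21, 9.54, 9.58, 9.81 and 9.41 in IM10 pigs. The lowest MGP values, 9.0, belonged to IM5 replicate 1 and IM10 replicate 1, the same livers that had the lowest ADAD1 values. Within diets r was 0.88 (limma adjusted p = 0.0469) and rho was 0.81, and r was 0.54 in group CON, 0.82 in group IM5 and 0.99 in group IM10. Without the 2 livers farthest in ADAD1, r was 0.76. MGP itself averaged 9.42 ± 0.29 in group IM10 and 9.50 ± 0.13 in group CON (SD, n = 6 each), a log2 difference of -0.08 that did not meet the criteria.

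ACAT2, the cytosolic thiolase that joins acetyl-CoA units in the first step towards cholesterol, tended to be higher within a diet where ADAD1 was lower. Its values were 8.40, 8.14, 8.36, 8.47, 8.39 and 8.28 in CON pigs, 8.78, 8.30, 8.28, 8.0, 7.87 and 7.94 in IM5 pigs, and 8.89, 8.87, 8.57, 8.28, 8.13 and 8.51 in IM10 pigs. IM10 replicates 1 and 2 and IM5 replicate 1 had the 3 highest ACAT2 values and the 3 lowest ADAD1 values. Within diets r was -0.87 (limma adjusted p = 0.0469) and rho was -0.60, and r was -0.41 in group CON, -0.84 in group IM5 and -0.95 in group IM10. Without the 2 livers farthest in ADAD1, r was -0.75. ACAT2 averaged 8.54 ± 0.31 in group IM10 and 8.34 ± 0.12 in group CON (SD, n = 6 each), a log2 difference of 0.20 that did not meet the criteria. The calls of MGP and ACAT2 lay close to the threshold. Leaving out 1 liver at a time ended that of MGP for 13 of 18 livers and that of ACAT2 for 12, with r never below 0.83 in size for MGP or 0.81 for ACAT2. Both calls were also lost after quantile normalization (limma adjusted p = 0.0614 for MGP and 0.0638 for ACAT2) and with array medians subtracted (0.0503 for both). They were lost as well without the diet term (0.0964 for both), on ranks (0.755 for both) and with the replicate number as a block (0.9998 for both).

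**Figure D3:**
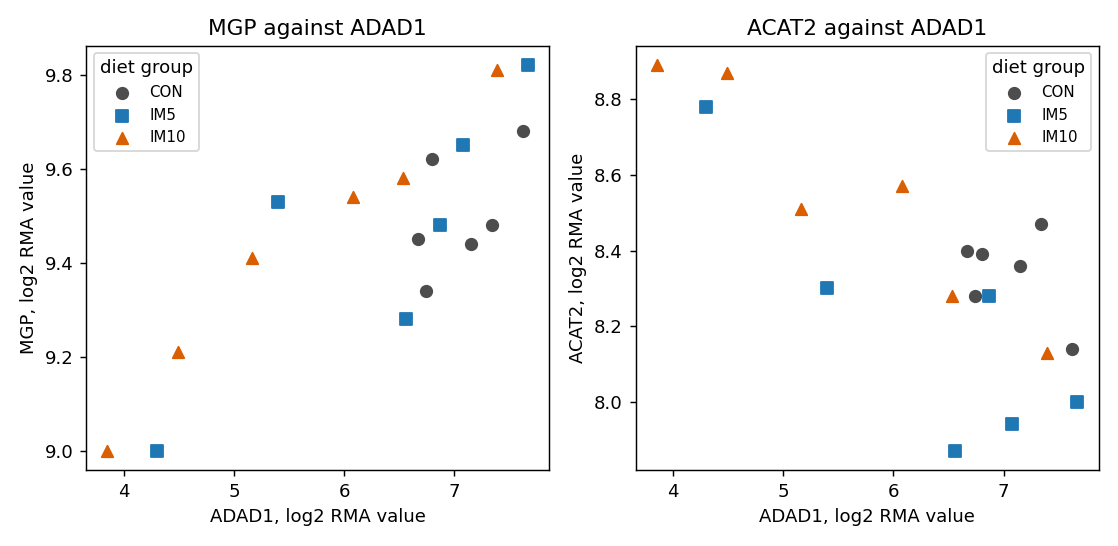
Log2 RMA value of MGP (left) and ACAT2 (right) against that of ADAD1 in the 18 livers, with each pig's diet group given by colour and shape. MGP runs with ADAD1 (within-diet r = 0.88) and ACAT2 against it (r = -0.87), and the CON livers lie together at the high end of ADAD1.

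The other 8 of the 10 named genes with the largest within-diet correlation to ADAD1, taken among genes with 1 sign of r in all 3 diets, did not pass the adjusted threshold (limma adjusted p between 0.278 and 0.424). Negative ones were TOR1A (r = -0.82), an ATPase of the endoplasmic reticulum and nuclear envelope, ANXA6 (r = -0.80), a calcium-dependent phospholipid-binding annexin, LOC100626190 (r = -0.78) and LOC100513868 (r = -0.78). Positive ones were SOX11 (r = 0.81), a developmental transcription factor, CHDH (r = 0.78), the mitochondrial enzyme that oxidises choline, C7H6orf89 (r = 0.77), and PDK4 (r = 0.77), a kinase that switches off pyruvate dehydrogenase. Leaving out the 2 livers farthest in ADAD1 brought r to 0.49 for CHDH and 0.59 for PDK4, while SOX11 stayed at 0.79. LOC100626190 had low log2 values, between 1.1 and 1.63. None of the 10 was on the germ cell or piRNA lists used below.

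For GTSF1, 1026 of 25387 probe sets had an unadjusted p under 0.05 within diets (4.04%), 560 of them positive (2.21%) and 466 negative (1.84%), and 0 passed the adjusted threshold (limma adjusted p of at least 0.999954). The 10 named genes with the largest correlation to GTSF1 are therefore a description. Among the positive ones were FAM103A1 (r = 0.79), a partner of the mRNA cap methyltransferase, PIK3C2G (r = 0.78), a class II phosphoinositide 3-kinase, and CATSPERB (r = 0.78), a subunit of the sperm calcium channel. IL26, a cytokine gene with low log2 values between 1.68 and 2.22, and LOC100156119 both had r = 0.73. Negative ones were DAPL1 (r = -0.77), SRSF12 (r = -0.77), a splicing factor, PCDH19 (r = -0.76), a cell adhesion protocadherin, NDRG1 (r = -0.75), a stress-responsive gene, and AFAP1L2 (r = -0.74). CATSPERB had log2 values between 1.89 and 2.48, and r was 0.81 in group CON, 0.38 in group IM5 and 0.89 in group IM10. The 10 genes of ADAD1 and the 10 of GTSF1 shared 0 genes. At the criteria 0 of the 20 differed between IM10 and CON (0.8% of all probe sets were lower and 1.27% higher).

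Because both genes belong to the germ line, other genes of the same processes were followed in the same livers. Of 33 germ cell markers 19 were measured, among them genes of meiosis (SYCP1, SYCP3, DMC1), of sperm structure (ODF1, AKAP4, TNP1) and of early germ cells (NANOS2, DMRT1). Their means over all livers lay between 2.08 and 4.92 on the log2 scale. At the criteria 0 of 19 were lower in IM10 than in CON (0.8% of all probe sets were) and 0 were higher (1.27% were). The median log2 difference of IM10 minus CON was 0.08. The mean level of the whole list ran from 3.12 to 3.24 in IM10 livers and from 3.08 to 3.19 in CON livers. A count of 0 of 19 lower is near the share over all probe sets, so it says nothing about the markers as a set. The label of the pair as germ cell genes rests on what is known of them. Within diets, 0 of 19 correlated with ADAD1 at an unadjusted p under 0.05 (7.23% of all probe sets did), with a median r of 0.12. The largest was SPO11 (r = 0.43), which cuts DNA in meiosis. With GTSF1, 4 of 19 correlated at that level (4.04% of all probe sets did), 2 positively and 2 negatively (median r 0.00). The largest were DMC1 (r = -0.70), the recombinase of meiosis, and NANOS2 (r = -0.57), and the positive ones were TEX101 (r = 0.54) and SYCP3 (r = 0.48).

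The piRNA pathway, in which GTSF1 works, was measured by 16 of 23 listed genes. At the criteria 0 of 16 were lower and 0 higher in IM10 than in CON (0.8% and 1.27% of all probe sets were). Counts of 0 are near these shares, and the median log2 difference was 0.01. With GTSF1, 1 gene correlated positively at an unadjusted p under 0.05, ASZ1 (r = 0.57), a scaffold of the piRNA machinery, and 1 negatively, TEX15 (r = -0.71), which acts in transposon silencing in the mouse (2.21% of all probe sets were positive and 1.84% negative at that level). The median r of the list was -0.05, against 0.00 over 12305 named genes. The PIWI genes that were measured had r = 0.22 (PIWIL1) and r = -0.34 (PIWIL4) with GTSF1, and GTSF1L, its paralogue, had r = 0.38. With ADAD1, 0 of 16 genes correlated at an unadjusted p under 0.05 (7.23% of all probe sets did), with a median r of -0.10. Of the enzymes that deaminate adenosine in RNA, relatives of ADAD1, 4 of 7 were measured. At that level 0 of 4 correlated with ADAD1, and r lay between -0.31 for ADARB2 and 0.07 for ADAT2. Of the double-stranded RNA binding proteins, 6 of 11 were measured and STAU2, which moves mRNA in the cell, was the only one past an unadjusted p of 0.05 with ADAD1 (r = 0.50; 7.23% of all probe sets were).

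Lists of other cell types and genes were set beside the pair in the same way. Of the 6 macrophage markers measured, all 6 ran against ADAD1 within diets, with a median r of -0.46 against 0.00 over all named genes. The largest were C1QA (r = -0.62), a complement component that liver macrophages make, and CSF1R (r = -0.54), their growth factor receptor, and 1 of 6, C1QA, had an unadjusted p under 0.05 (3.55% of all probe sets did so with a negative sign). By diet, all 6 were negative with ADAD1 in groups CON and IM10. In group IM5, MARCO (r = 0.41) and MSR1 (r = 0.06) were positive, and the other values lay between -0.35 and -0.14. The mean level of the list correlated with ADAD1 at r = -0.62 and with GTSF1 at r = -0.28. The list ran from 7.46 to 7.96 in IM10 livers and from 7.51 to 7.82 in CON livers, so its level overlapped between the diets. Whether the macrophage markers have a part in the variation of ADAD1 was not tested. The hepatocyte markers had a median r of 0.09 with ADAD1 and 0.17 with GTSF1. At an unadjusted p under 0.05, 0 of 6 correlated with either, and so did 0 of 3 testis somatic markers. Of all probe sets, 7.23% did so with ADAD1 and 4.04% with GTSF1.

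Some marker lists differed between the diets in which the pair was low. All 3 mast cell markers measured, FCER1A, KIT and MS4A2, were higher in IM10 than in CON at the criteria, beside 1.27% of all probe sets. So were 3 of 5 smooth muscle markers, ACTG2, CNN1 and TAGLN, of which ACTG2 is also among the genes with large differences named below, and 1 of 6 endothelium markers, CLDN5. The mast cell list ran from 4.72 to 5.00 in IM10 livers and from 4.30 to 4.78 in CON livers, and the smooth muscle list from 5.47 to 6.70 in IM10 livers and from 5.20 to 6.00 in CON livers. In IM5 against CON, 2 of 3 mast cell markers (FCER1A and KIT), 2 of 5 smooth muscle markers (TAGLN and MYL9), CLDN5, the macrophage marker MSR1 (1 of 6) and the cholangiocyte marker SOX9 (1 of 5) were higher at the criteria, beside 1.12% of all probe sets. Lower in IM5 were KLRK1 (1 of 9 T and NK cell markers) and PNLIP (1 of 3 pancreas acinar markers), beside 0.804% of all probe sets. Within diets the mean levels of the mast cell and smooth muscle lists correlated with ADAD1 at r = -0.06 and 0.16, and with GTSF1 at r = -0.03 and 0.27. Of the T and NK cell markers 1 of 9, CD5, was lower in IM10 (0.8% of all probe sets were), and the mean level of that list correlated at r = -0.19 with ADAD1 and 0.00 with GTSF1. In whole liver, fewer cells of a type and less RNA per cell cannot be told apart, and the part of these cell types in the differences of the pair was not tested.

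After ACAT2 had been seen, a list of further genes of cholesterol synthesis and uptake was added. It was chosen from a correlate of ADAD1 in these same livers, so its counts are a description and no separate support. All 11 of its measured genes, of 21 listed, ran against ADAD1 within diets, with a median r of -0.50, and 6 had an unadjusted p under 0.05 (3.55% of all probe sets did so with a negative sign). The largest were HSD17B7 (r = -0.76), a sterol reductase, and MSMO1 (r = -0.67), a sterol oxidase. HMGCS1, which makes HMG-CoA, had r = -0.67, NSDHL r = -0.65, FDPS r = -0.63 and SQLE r = -0.50. By diet, only in group IM10 were all 11 genes negative. In group IM5 the signs were mixed, with 7 of 11 negative and 4 positive. In group CON 6 of 11 were negative, among them HMGCS1 (r = -0.38) and MSMO1 (r = -0.36). The other 5 were positive in group CON, among them NSDHL (r = 0.47) and HSD17B7 (r = 0.36). The mean level of the list correlated with ADAD1 at r = -0.74 and ran from 9.23 to 9.64 in IM10 livers and from 9.11 to 9.35 in CON livers. At the criteria 1 of 11 was higher in IM10, INSIG1, which holds back sterol synthesis (log2 difference 0.46), beside 1.27% of all probe sets. With GTSF1 all 11 were negative as well over the diets together (median r -0.36), but not within each diet. In group IM10 each was negative. In group CON only PMVK (r = -0.44) and TM7SF2 (r = -0.13) were negative. The others were positive there, among them HSD17B7 (r = 0.88) and FDPS (r = 0.76). Of the 11 genes, 0 had an unadjusted p under 0.05 with GTSF1 within diets (1.84% of all probe sets did so with a negative sign).

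The pair was also set beside 10 genes that had large differences between IM10 and CON in the same arrays, among them TMEM52B, CISH and HAMP. With ADAD1, 0 of 10 correlated within diets at an unadjusted p under 0.05 (7.23% of all probe sets did). The r values lay between -0.19 and 0.33. TMEM52B had r = -0.05 with ADAD1 and r = -0.26 with GTSF1. OTOP3, a proton channel gene, was the only one past that level with GTSF1 (r = -0.61), beside 4.04% of all probe sets.

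**Figure D4:**
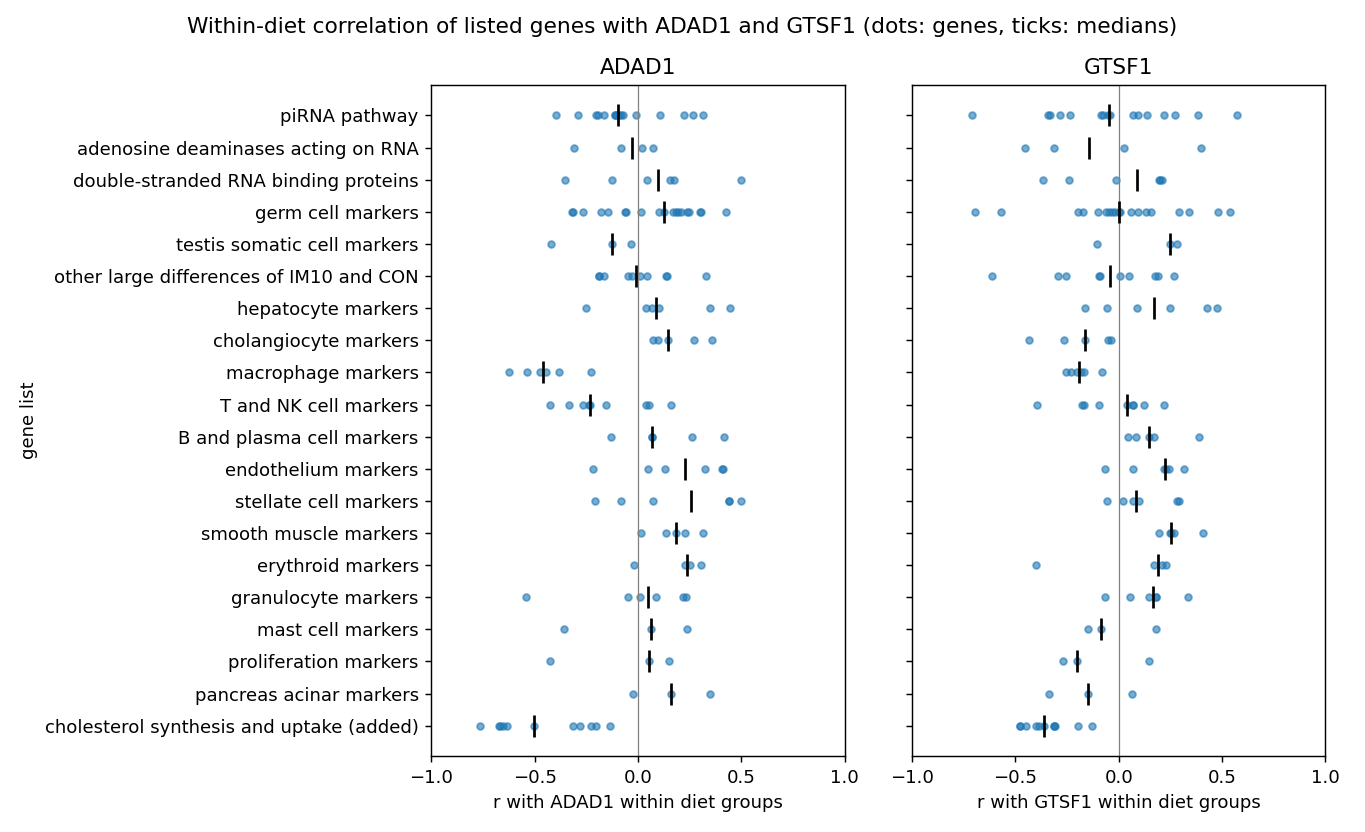
Within-diet correlation r of each measured gene of 20 lists (rows) with ADAD1 (left) and GTSF1 (right) over 18 livers. Dots are genes and ticks are list medians. The macrophage (median -0.46) and cholesterol lists (median -0.50) lie to the left of zero for ADAD1, and the germ cell and piRNA lists spread around zero for both. The cholesterol list was added after ACAT2 had been seen.

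Finally, the 5 nearest measured genes on each side of the pair were taken from the gene order of the Sscrofa11.1 annotation, without coordinates. Next to ADAD1, 2 of 10 genes correlated with it within diets at an unadjusted p under 0.05 (7.23% of all probe sets did). They were KIAA1109 (r = 0.66, limma adjusted p = 0.528), a lipid transfer protein gene, and IL21 (r = 0.64, adjusted p = 0.540), a T cell cytokine. For KIAA1109 r was 0.48 in group CON, 0.76 in group IM5 and 0.67 in group IM10, whereas for IL21 it was -0.56 in group CON, 0.65 in group IM5 and 0.76 in group IM10. The annotated span of IL2, another T cell cytokine, overlaps that of ADAD1, and IL2 had r = -0.18. Both cytokine genes had low log2 values, between 1.97 and 2.72 for IL21 and between 2.03 and 2.78 for IL2. The 10 values lay between -0.34 and 0.66 with a median of -0.05. Around GTSF1, 0 of 10 neighbours correlated with it at that level (4.04% of all probe sets did), and r lay between -0.50 and 0.14.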

How the data were processed

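Liver RNA of 18 pigs was hybridised by the authors to Affymetrix porcine gene arrays, 1 array per pig. The authors deposited log2 values from robust multi-array averaging in Affymetrix Expression Console (versions and genome build not given in the sources used here), which corrects background, normalizes between arrays and combines probes. The table has 25388 probe sets. Of these, 13257 carry 1 gene symbol, 427 several and 11704 were not listed in the annotation. Names were checked against the Sscrofa11.1 gene table, in which those of 12804 of the 13257 probe sets were found.

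Pairs of groups were compared with limma 3.58.1 (R 4.3.3) on their 12 arrays without covariates. The study's methods used an unpaired Student's test on the same groups, which is an alternative here, and their criteria were applied with limma's moderated p in its place. Single genes were tested with exact permutation tests over 924 arrangements. Correlates came from a limma fit on diet and the level of ADAD1 or GTSF1 over all probe sets, with Benjamini-Hochberg adjustment, and r is the correlation of deviations from diet means. Correlations of the pair used 100000 permutations within diets. The fits were tested on simulated data. The genes named are the 10 with the largest r of 1 sign in all 3 diets, those with an adjusted p under 0.05, the 2 largest r of each list and the 5 neighbours on each side; further list members were named after their values were seen. Of several probe sets for a gene, that with the highest mean was used. The genes and the lists were chosen with earlier results of these data known. Alternatives were quantile normalization, subtraction of array medians, the methods' t-test, a filter at the 25th percentile of mean level, ranks, no diet term, 1 fit of all arrays, medians, the replicate number as a block, and leaving out each array.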

Additional observations from a re-analysis of the deposited data

How the results depend on the processing

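The log2 differences of both genes kept their direction under all alternatives. The replicate block and the single fit of all arrays could not change them, because the groups are of equal make-up. Leaving out 1 array, IM10 minus CON ran from -1.83 to -1.12 for ADAD1 and from -1.30 to -0.82 for GTSF1. IM5 minus CON ran from -1.01 to -0.34 (ADAD1) and from -0.71 to -0.36 (GTSF1), and IM10 minus IM5 from -1.13 to -0.38 and from -0.77 to -0.29, with limma adjusted p between 0.726 and 0.991 for both comparisons over all alternatives. The number of probe sets correlated with ADAD1 within diets (4) was 0 after quantile normalization, 0 with array medians subtracted, 0 on ranks, 2 without the diet term and 4 with the filter on low values, and 0 to 5 when 1 array was left out. It was 0 without any of CON replicates 1 to 5, IM5 replicate 4 or IM10 replicates 1, 2, 4 and 5. It was 1 without IM5 replicate 2 or 3, and 2 without IM10 replicate 3. For GTSF1 it was 0 throughout. The within-diet correlation of ADAD1 with GTSF1 was 0.19 to 0.40 when 1 array was left out (0.19 without IM10 replicate 2). It was 0.40 without the 2 arrays farthest in ADAD1, an alternative added after the data were seen. Without the diet term it was 0.50 (permutation p = 0.033). That value contains the diet differences by which the genes were chosen, so its p is no test of a shared fall. The r of MGP with ADAD1 lay between 0.81 and 0.93 and that of ACAT2 between -0.90 and -0.60 over all alternatives. The 20 named correlates kept their sign in each alternative that gave a value, and 6 of them had none under the filter on low values, which they did not pass.

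The replicate numbers were not taken to pair the pigs, because no label says so. Of same-numbered pairs, 4 of 18 had a correlation of deviations over 0.1 (median 0.04). Of differently numbered pairs, 7 of 90 did (median -0.01). The own number correlated best among 6 in 13 of 36 cases, a hint from the data and not from the design. In a fit with the replicate block, the log2 differences were the same by construction, because each number occurs once in each group. With this block the limma adjusted p was between 0.868 and 0.971, and 0 probe sets correlated with ADAD1 or with GTSF1. The correlation of the pair was 0.44 with it (permutation p = 0.153).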
